A study of Mus musculus with 6 samples.

Results

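The kainate receptor subunits are encoded by the 5 genes Grik1 to Grik5, and this account follows their RNA on the ribosomes of D2 receptor-expressing (D2) neurons of the mouse medial prefrontal cortex (mPFC). Members were taken by gene name from a table of transcript levels, which gave 5 of 47729 genes and 21 of 115220 transcript rows, of which 20 were above 0 in some library. The study asked what changes on these ribosomes when GSK3β, a protein kinase, is knocked out in D2 neurons.

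All mice were male C57BL/6 mice, 2.5 to 3 months old at viral injection. Every animal carried D2Cre, a Cre-dependent Flag-tagged Cas9 and the RiboTag allele, in which Cre puts a hemagglutinin tag on the ribosomal protein Rpl22. The Ctrl group received an AAV for GFP in the mPFC, and the Gsk3sKO group received an AAV for GFP and the Gsk3 sgRNA, so that both groups expressed Cas9 and the tag and Ctrl had no guide RNA. The mPFC was dissected 3 weeks after injection, tagged ribosomes were immunoprecipitated (RiboTag-IP), and the bound RNA was sequenced in 3 libraries per group. Cas9 and the tag depended on the D2Cre transgene, so cells that express it define the sample, whether or not an injected virus reached each of them. The labels do not say whether the libraries came from separate mice or from pools, so p-values reflect only how far these libraries vary, and that variation may be technical.

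Kainate receptors are tetrameric glutamate-gated cation channels, named after an agonist from red algae. GRIK1, GRIK2 and GRIK3 form working channels on their own, whereas GRIK4 and GRIK5, which bind kainate with higher affinity, need a partner among GRIK1 to GRIK3 to form a channel. In cortex and hippocampus the receptors sit on both sides of the synapse, where they adjust transmitter release and carry slow, small postsynaptic currents, and some of their signalling runs through G proteins.

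The pore loop is shown first because it holds the glutamine codon of the Q/R site, which the enzymes ADAR and ADARB1 can recode in Grik1 and Grik2 RNA. The sequences are the GENCODE M21 transcripts on the mouse build GRCm38, 5′ to 3′ in the sense of the RNA, with that codon in capitals. The codon lies at chr16:87940542-87940544 on the minus strand in Grik1, at chr10:49244329-49244331 on the minus strand in Grik2, at chr4:125691207-125691209 on the plus strand in Grik3, at chr9:42547623-42547625 on the minus strand in Grik4 and at chr7:25022497-25022499 on the minus strand in Grik5. In Grik1, Grik2 and Grik3 the 45 bases are joined from neighbouring exons, and in Grik4 and Grik5 they lie within an exon.
Grik1: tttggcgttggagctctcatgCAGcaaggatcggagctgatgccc
Grik2: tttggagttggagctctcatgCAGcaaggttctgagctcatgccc
Grik3: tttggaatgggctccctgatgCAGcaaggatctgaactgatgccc
Grik4: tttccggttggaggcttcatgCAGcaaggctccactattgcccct
Grik5: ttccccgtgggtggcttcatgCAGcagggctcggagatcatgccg

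The codon was located as a glutamine codon, and in all 5 annotated sequences it read CAG, the unedited form. Annotated sequences do not show whether the RNA of these libraries was edited. Grik1 and Grik2 matched at 41 of the 45 bases, and Grik3 matched each of them at 36. Grik4 and Grik5 matched each other at 31 bases, and the least alike pair was Grik3 and Grik4 with 24. The transcript levels do not tell edited from unedited RNA. Among the 15 annotated transcripts, those of different subunits shared no identical run longer than 38 bases (Grik3 with Grik5). Longer reads from these transcripts could thus be told apart between the genes. The other 6 rows, all of Grik2, were not searched.

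Levels are given as FPKM, a fragment count corrected for transcript length and for how many fragments each library had mapped, and a gene total is the sum of FPKM over the transcript rows of a gene. Differences were tested with limma on log2(FPKM + 1) over all gene totals with a mean of at least 1 FPKM, and a gene was called at an unadjusted p under 0.05. All 5 kainate receptor genes passed that filter. None of the 5 was called, at the unadjusted or the adjusted p, and an ordinary linear model without limma's moderation also called 0. Over all 12874 gene totals tested, 6.56% were called, 1.36% as higher (175) and 5.2% as lower (669) in Gsk3sKO, and rescaling the libraries to their median ratio made this 276 higher and 528 lower. The median log2 fold change of the 5 genes was -0.00026, and that of all gene totals was -0.062. In RNA from many cells, fewer cells of a type and less RNA per cell cannot be told apart.

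Among the subunits that form channels on their own, Grik1 (chr16:87895900-88290265, minus strand) had 5.58, 9.62 and 7.26 FPKM in Ctrl replicates 1 to 3 and 7.93, 7.74 and 6.83 FPKM in Gsk3sKO replicates 1 to 3. Its Gsk3sKO values all lay inside the Ctrl range. The means were 7.49 ± 2.03 and 7.50 ± 0.589 FPKM (SD, n = 3 each), with a log2 fold change of 0.027 ± 0.23 (SE), a 95% interval of -0.49 to 0.55 and a limma adjusted p of 0.991.

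Grik2 (chr10:49094833-49788766, minus strand) encodes the subunit best known from principal neurons of the forebrain. Its gene total was 10.003, 11.7 and 11.2 FPKM in Ctrl and 10.05, 13.6 and 9.64 FPKM in Gsk3sKO, and the highest and the lowest value were both Gsk3sKO libraries. The means were 11.0 ± 0.897 and 11.1 ± 2.17 FPKM (SD, n = 3 each), and the log2 fold change was -0.00026 with a 95% interval of -0.44 to 0.44.

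Grik3 (chr4:125490700-125714173, plus strand), whose receptors need high glutamate concentrations to open, had 12.3, 15.2 and 15.2 FPKM in Ctrl and 13.9, 15.5 and 14.4 FPKM in Gsk3sKO. The groups overlapped, and Ctrl replicate 1 was the lowest library. The log2 fold change was 0.044 ± 0.16 (SE), with a 95% interval of -0.33 to 0.42 and a limma adjusted p of 0.970.

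Among the high-affinity subunits, Grik4 (chr9:42518135-42944493, minus strand) was the scarcest, with 2.46, 3.52 and 3.20 FPKM in Ctrl and 3.80, 2.91 and 2.48 FPKM in Gsk3sKO. Its values overlapped almost completely between the groups, and both means were 3.06 FPKM. The 95% interval of its log2 fold change ran from -0.59 to 0.59, so differences within that range were compatible with these libraries.

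Grik5 (chr7:25009849-25072346, minus strand), the main high-affinity partner in the adult brain, had 26.3, 28.8 and 27.0 FPKM in Ctrl and 25.3, 26.1 and 17.3 FPKM in Gsk3sKO. It was the only subunit whose groups did not overlap, with every Gsk3sKO library below every Ctrl library, but the nearest libraries were 26.3 and 26.1 FPKM and Gsk3sKO replicate 3 stood well below the rest. Of all gene totals tested, 8.3% had every Gsk3sKO library below every Ctrl library. The means were 27.4 ± 1.26 and 22.9 ± 4.91 FPKM (SD, n = 3 each). The log2 fold change was -0.27 ± 0.18 (SE), with a 95% interval of -0.69 to 0.15, an unadjusted limma p of 0.180 and an adjusted p of 0.825. A two-sided exact permutation test gave p = 0.1, the smallest that 3 against 3 libraries allow. Without Gsk3sKO replicate 3 the log2 fold change was -0.086, with an unadjusted limma p of 0.557 and an adjusted p of 0.962.

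**Figure D1:**
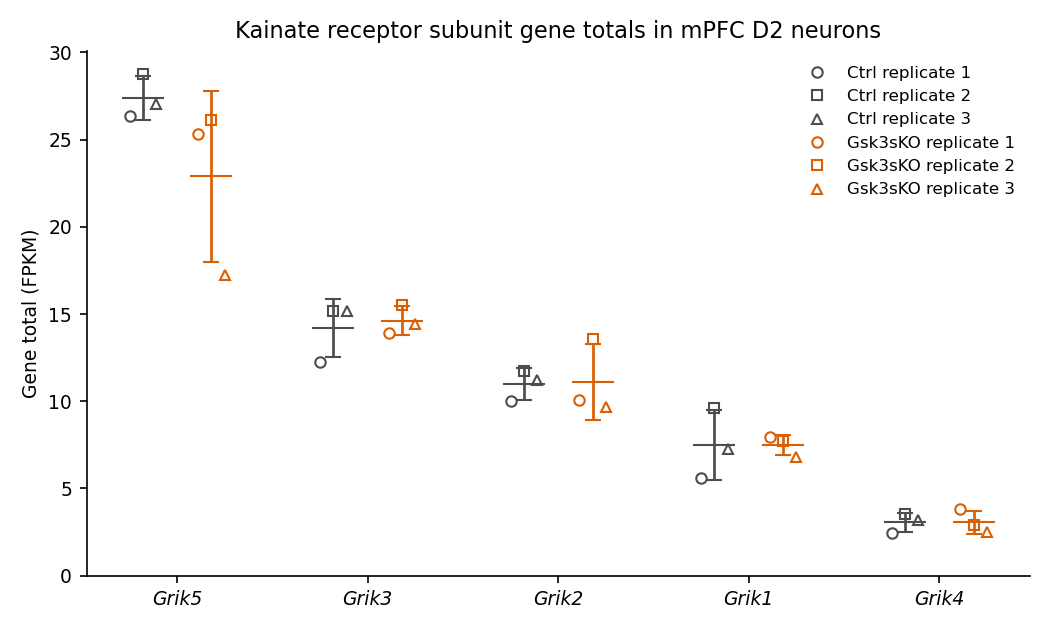
Gene totals of Grik1 to Grik5 in FPKM for each of the 3 Ctrl and 3 Gsk3sKO libraries (points), with group means and SD (n = 3 each). Grik5 is highest and Grik4 lowest in both groups, and the low Gsk3sKO point of Grik5 at 17.3 FPKM is replicate 3.

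**Figure D2:**
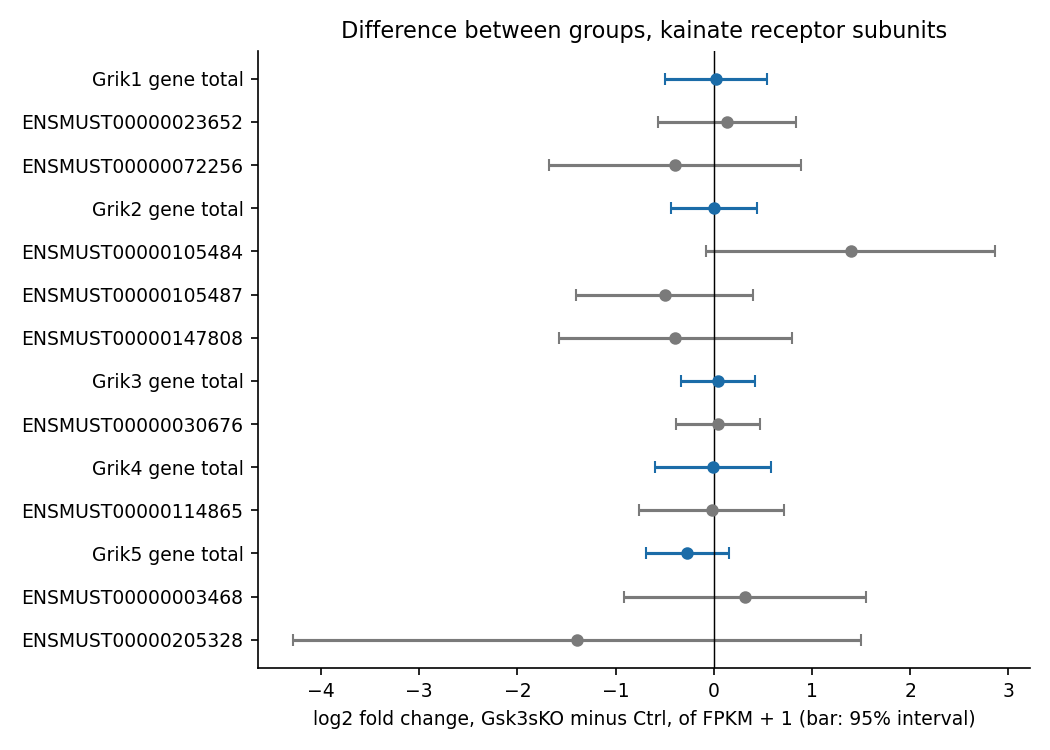
Log2 fold change, Gsk3sKO minus Ctrl, of FPKM + 1 for the 5 gene totals and the 9 tested transcripts, with 95% limma intervals (3 libraries per group). Every interval includes 0, and the intervals of Grik2 ENSMUST00000105484 and Grik5 ENSMUST00000205328 are far wider than those of the gene totals.

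FPKM is scaled to length, so levels could be compared between the subunits. The order Grik5, Grik3, Grik2, Grik1, Grik4 held in 6 of 6 libraries. On the log2(FPKM + 1) scale, Grik5 exceeded Grik3 by 0.75 ± 0.27 (SD over 6 libraries), and Grik3 exceeded Grik2 by 0.36 ± 0.12. Grik2 exceeded Grik1 by 0.51 ± 0.21, and Grik1 exceeded Grik4 by 1.06 ± 0.14. The neighbours were set by ranking these same libraries, so the 4 steps are a description and no p is given. With the highest transcript of each gene in place of the gene total, the mean steps kept their direction, but the order no longer held in every library. Grik5 ENSMUST00000003468 was below Grik3 in Ctrl replicate 3 (7.06 against 15.2 FPKM). Grik2 ENSMUST00000105487 was below Grik1 ENSMUST00000023652 in Gsk3sKO replicates 2 and 3 (5.42 against 6.82 and 2.70 against 4.27 FPKM). On average, Grik5 then exceeded Grik3 by 0.40 and Grik2 exceeded Grik1 by 0.086 on the same scale. The steps from Grik3 to Grik2 and from Grik1 to Grik4 were then 1.11 and 0.88. Among the 12874 gene totals tested, Grik5 stood at the 78.4 percentile of mean level and Grik4 at the 22.4 percentile, with Grik3, Grik2 and Grik1 at 65.1, 57.6 and 45.7.

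The 5 totals together came to 56.6, 68.8 and 63.9 FPKM in Ctrl and 60.96, 65.9 and 50.6 FPKM in Gsk3sKO. The groups overlapped, and the lowest sum was again Gsk3sKO replicate 3. Grik5 made up 46.5, 41.8 and 42.3% of this sum in Ctrl and 41.5, 39.7 and 34.1% in Gsk3sKO, so the shares did not overlap, by a margin of less than 1 percentage point. The Grik5 total is part of this sum and did not overlap either, as for 8.3% of gene totals, so the share is not a separate result. No background was counted for such shares. The ratio of the high-affinity subunits (Grik4 and Grik5) to Grik1, Grik2 and Grik3 was 1.03, 0.884 and 0.897 in Ctrl and 0.913, 0.788 and 0.638 in Gsk3sKO. These ratios overlapped, because Gsk3sKO replicate 1 lay above Ctrl replicates 2 and 3. The kainate receptor genes were a small part of the ionotropic glutamate receptor RNA: over the 6 libraries the AMPA receptor genes Gria1 to Gria4 summed to a mean of 324 FPKM and the NMDA receptor genes to 271 FPKM, and the kainate receptor genes made up 7.71 to 11.2% of the 3 families together.

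Individual transcripts showed more spread than the gene totals. Of the 21 rows, 9 had a mean of at least 1 FPKM and were tested, and none of the 9 was called, by limma at the unadjusted or adjusted p or by an ordinary linear model, against 5.56% of all 21584 transcripts tested (1.81% higher and 3.75% lower in Gsk3sKO). None of the 9 kept its groups apart in FPKM, against 4.28% of all transcripts tested with every Gsk3sKO library higher and 6.96% with every one lower. Their adjusted p-values lay between 0.842 and 0.996. Their median log2 fold change was -0.019, and that of all transcripts tested was -0.057. Where transcripts overlap, reads are assigned to them by estimation, so a high value of a transcript can come with a low value of its neighbour.

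Grik2 carried the widest difference between transcripts. ENSMUST00000105484 and ENSMUST00000079751 end in different last exons, and the coding bases of those exons are shown because they fix which C-terminal tail the subunit has. Those of ENSMUST00000105484 lie at chr10:49101111-49101272 and those of ENSMUST00000079751 at chr10:49105021-49105065, both on the minus strand of GRCm38, and the capitals mark coding bases of the last exon.
ENSMUST00000105484: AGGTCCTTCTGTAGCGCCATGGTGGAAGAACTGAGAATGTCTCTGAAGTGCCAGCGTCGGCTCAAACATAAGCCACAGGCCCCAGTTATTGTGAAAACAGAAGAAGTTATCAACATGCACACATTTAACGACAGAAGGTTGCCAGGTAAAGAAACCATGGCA
ENSMUST00000079751: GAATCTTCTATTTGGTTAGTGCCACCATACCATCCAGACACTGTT

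ENSMUST00000105484, the row with the longer of these coding ends, had values of 0, 1.24 and 0.980 FPKM in the Ctrl group and of 1.07, 4.98 and 5.48 FPKM in Gsk3sKO. The ends of the 6 Grik2 rows outside the annotation are not known here, so these values do not give the level of either tail. Gsk3sKO replicates 2 and 3 were the highest libraries, and Gsk3sKO replicate 1 fell between Ctrl replicates 2 and 3. The log2 fold change was 1.39 ± 0.61 (SE), with a 95% interval of -0.075 to 2.86, an unadjusted limma p of 0.0594 and an adjusted p of 0.842. Leaving out Gsk3sKO replicate 1 gave 1.92, an unadjusted limma p of 0.0135 and an adjusted p of 0.430. Leaving out any other library gave 1.04 (without Ctrl replicate 1) to 1.62 (without Ctrl replicate 2), with unadjusted limma p-values of 0.0714 to 0.165. ENSMUST00000079751 was above 0 only in Ctrl replicate 3, at 1.12 FPKM.

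ENSMUST00000105487, the row with the highest mean of Grik2, had 8.68, 6.95 and 6.90 FPKM in Ctrl and 8.08, 5.42 and 2.70 FPKM in Gsk3sKO. Its groups overlapped through Gsk3sKO replicate 1, and the log2 fold change was -0.50 ± 0.37 (SE, limma adjusted p = 0.890). It was -0.15 without Gsk3sKO replicate 3 and -0.80 without Gsk3sKO replicate 1. ENSMUST00000147808, also a Grik2 row, had 1.33, 2.56 and 1.73 FPKM in Ctrl and 0.251, 2.24 and 1.46 FPKM in Gsk3sKO, with a log2 fold change of -0.39 ± 0.49 (SE). That value was -0.0019 without Gsk3sKO replicate 1, -0.23 without Ctrl replicate 2 and -0.69 without Gsk3sKO replicate 2. The exons of these rows are not given here, because they are not in the GENCODE M21 annotation used.

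As a share of the Grik2 total, ENSMUST00000105484 was 0, 10.5 and 8.73% in Ctrl and 10.7, 36.7 and 56.8% in Gsk3sKO. The shares did not overlap, but Ctrl replicate 2 and Gsk3sKO replicate 1 were nearly equal. Among all 17282 transcripts averaging at least 10% of their gene total, 5.14% had every Gsk3sKO share above every Ctrl share and 4.43% had every one below. The difference in mean share was 28.3 percentage points, with a two-sided exact permutation p of 0.1, the smallest possible. It was 17.3 points without Gsk3sKO replicate 3 and 40.3 points without Gsk3sKO replicate 1. ENSMUST00000105487 made up 86.7, 59.1 and 61.4% in Ctrl and 80.4, 39.9 and 28.0% in Gsk3sKO, a difference of -19.7 percentage points (exact permutation p = 0.3). That difference was -8.94 points without Gsk3sKO replicate 3, -10.8 without Ctrl replicate 1 and -35.1 without Gsk3sKO replicate 1. The libraries with the highest share of the former had the lowest share of the latter, and the Grik2 total over both had a log2 fold change near 0.

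Grik1 is annotated with and without an 87-base coding exon, present only in ENSMUST00000072256, at chr16:87896809-87896895 on the minus strand, and shown because it separates the 2 rows that were tested. All of its bases are in capitals.
ENSMUST00000072256: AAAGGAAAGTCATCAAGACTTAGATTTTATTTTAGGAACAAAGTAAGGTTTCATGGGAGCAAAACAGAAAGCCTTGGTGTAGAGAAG

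ENSMUST00000072256 had 1.23, 3.60 and 1.23 FPKM in Ctrl and 0.486, 0.917 and 2.55 FPKM in Gsk3sKO, and the groups overlapped. The transcript without this exon, ENSMUST00000023652, had 4.35, 6.02 and 6.03 FPKM in Ctrl and 7.44, 6.82 and 4.27 FPKM in Gsk3sKO, with both the highest and the lowest library in Gsk3sKO. It made up 62.6 to 83.0% of the Grik1 total in Ctrl and 62.6 to 93.9% in Gsk3sKO (difference of the means 7.03 percentage points, exact permutation p = 0.5). This difference ran from 0.872 points without Gsk3sKO replicate 1, 1.06 without Ctrl replicate 2 and 3.73 without Gsk3sKO replicate 2 to 11.3 without Ctrl replicate 3 and 16.5 without Gsk3sKO replicate 3. The remaining Grik1 row, ENSMUST00000114137, was at 0 in all 6 libraries.

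In Grik5 a Ctrl library stood apart in which transcript its reads were assigned to. ENSMUST00000003468, which encodes the full subunit, had 24.9, 27.3 and 7.06 FPKM in Ctrl and 24.4, 25.2 and 16.3 FPKM in Gsk3sKO. ENSMUST00000205328, annotated as a target of nonsense-mediated decay, had 18.3 FPKM in Ctrl replicate 3 and at most 0.116 FPKM in the other 5 libraries. It made up 67.8% of the Grik5 total in Ctrl replicate 3 and at most 0.446% elsewhere.

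Both Grik5 transcripts have 20 exons and differ in 191 bases of exon 1, found only in ENSMUST00000003468, and in 25 bases at the end of exon 3, found only in ENSMUST00000205328. These 25 bases, at chr7:25067985-25068009 on the minus strand, are in capitals after the 35 bases before them, since ENSMUST00000003468 lacks them. A further Grik5 row annotated as a decay target, ENSMUST00000206134, was not compared.
ENSMUST00000205328: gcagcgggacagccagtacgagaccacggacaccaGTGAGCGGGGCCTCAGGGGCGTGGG

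The annotated coding length was 390 bases for ENSMUST00000205328 and 2937 bases for ENSMUST00000003468. The log2 fold change of ENSMUST00000003468 was 0.32 ± 0.51 (SE, limma adjusted p = 0.937) with all libraries and -0.26 without Ctrl replicate 3. That of ENSMUST00000205328 was -1.39 ± 1.20 (SE, limma adjusted p = 0.890) with all libraries and 0.020 without Ctrl replicate 3. The gene total of Ctrl replicate 3, 27.0 FPKM, lay between those of the other Ctrl libraries. A further Grik5 row, ENSMUST00000205661, lay below the filter with 0.932, 0.189 and 0.212 FPKM in Ctrl and at most 0.00907 FPKM in Gsk3sKO. Its groups did not overlap, but its mean was only 0.225 FPKM and it was not tested. How often rows this low did not overlap was not counted.

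Grik4 ENSMUST00000114865 had 2.46, 3.39 and 2.27 FPKM in Ctrl and 2.51, 2.91 and 2.48 FPKM in Gsk3sKO, and its groups overlapped. A second Grik4 row, ENSMUST00000034515, held 33.8% of the total in Gsk3sKO replicate 1 and 29.2% in Ctrl replicate 3. The short RNA gene Gm24420 overlaps 59 exon bases of both Grik4 rows on the same strand, so reads there could belong to Grik4 or to Gm24420. How many reads lay there was not counted. Grik3 had a single row, so its transcript value is its gene total. The 12 rows that were not tested had a mean under 1 FPKM, and 11 of them were above 0 in some library, the highest being ENSMUST00000034515 at 1.28 FPKM in Gsk3sKO replicate 1.

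Genes known to act with kainate receptors were taken from a list, 17 of which are reported here and 16 of these passed the filter. C1ql2 did not, with at most 0.256 FPKM in any library. Of the 16, 9 had a log2 fold change above 0 and 7 below, with a median of 0.041, and limma called 0 as higher and 1 (C1ql3) as lower at the unadjusted p, where 5.2% of all gene totals were called lower, so that 1 of 16 is near the background. At the adjusted p it called none, where 0.0466% of all gene totals passed.

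The auxiliary subunits Neto1 and Neto2, which slow the receptor's decay and raise its affinity, had means of 25.6 ± 1.72 and 14.5 ± 2.84 FPKM in Ctrl and of 27.1 ± 3.83 and 17.0 ± 0.523 FPKM in Gsk3sKO (SD, n = 3 each). Their log2 fold changes were 0.070 and 0.23, with 95% intervals of -0.29 to 0.43 and -0.18 to 0.65. Both intervals included 0, and the libraries of each gene overlapped.

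C1ql3, a secreted protein that with C1ql2 gathers kainate receptors at synapses, had 103, 115 and 116 FPKM in Ctrl and 97.9, 91.1 and 82.1 FPKM in Gsk3sKO. Every Gsk3sKO library of C1ql3 was below every Ctrl library, as for 8.3% of all gene totals tested. Its log2 fold change was -0.30 ± 0.13 (SE), with an unadjusted limma p of 0.0486 and an adjusted p of 0.755. The call was lost without Ctrl replicate 2, Ctrl replicate 3, Gsk3sKO replicate 2 or Gsk3sKO replicate 3, with log2 fold changes of -0.27, -0.27, -0.30 and -0.23 and unadjusted limma p-values of 0.137, 0.118, 0.0928 and 0.118. It was also lost when libraries were rescaled to their median ratio, with a log2 fold change of -0.24 and an unadjusted limma p of 0.0705.

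Among the PDZ scaffolds that hold receptors at the synapse, Grip1 had 6.39, 9.11 and 9.72 FPKM in Ctrl and 10.1, 10.7 and 10.6 FPKM in Gsk3sKO. Its groups did not overlap, as for 3.71% of all gene totals in that direction, and the log2 fold change of 0.30 ± 0.20 (SE) had an unadjusted limma p of 0.167. Dlg4, which encodes PSD-95, averaged 160 ± 26.3 FPKM in Ctrl and 124 ± 26.1 FPKM in Gsk3sKO (SD, n = 3 each), with a log2 fold change of -0.37 and an unadjusted limma p of 0.0936. Without Ctrl replicate 1 that difference was -0.51 with an unadjusted limma p of 0.0364 and an adjusted p of 0.888. That library was the lowest of Dlg4 in Ctrl (130 FPKM, against 168 and 181 FPKM), and no other alternative called Dlg4. Dlg1, Dlg3, Cask and Pick1, further scaffolds, had log2 fold changes between -0.23 and 0.067.

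None of the remaining partners was called. Cdh2, a cadherin that binds the receptors at synapses, had a log2 fold change of 0.15, and Kif17, a kinesin that carries kainate receptors along microtubules, 0.031. Klhl17, Klhl24 and Cul3, which act on receptor level and turnover, lay between -0.16 and 0.15. The editing enzymes Adar and Adarb1 had log2 fold changes of -0.15 and -0.086, with means of 43.6 and 24.1 FPKM in Ctrl and 39.0 and 22.8 FPKM in Gsk3sKO.

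**Figure D3:**
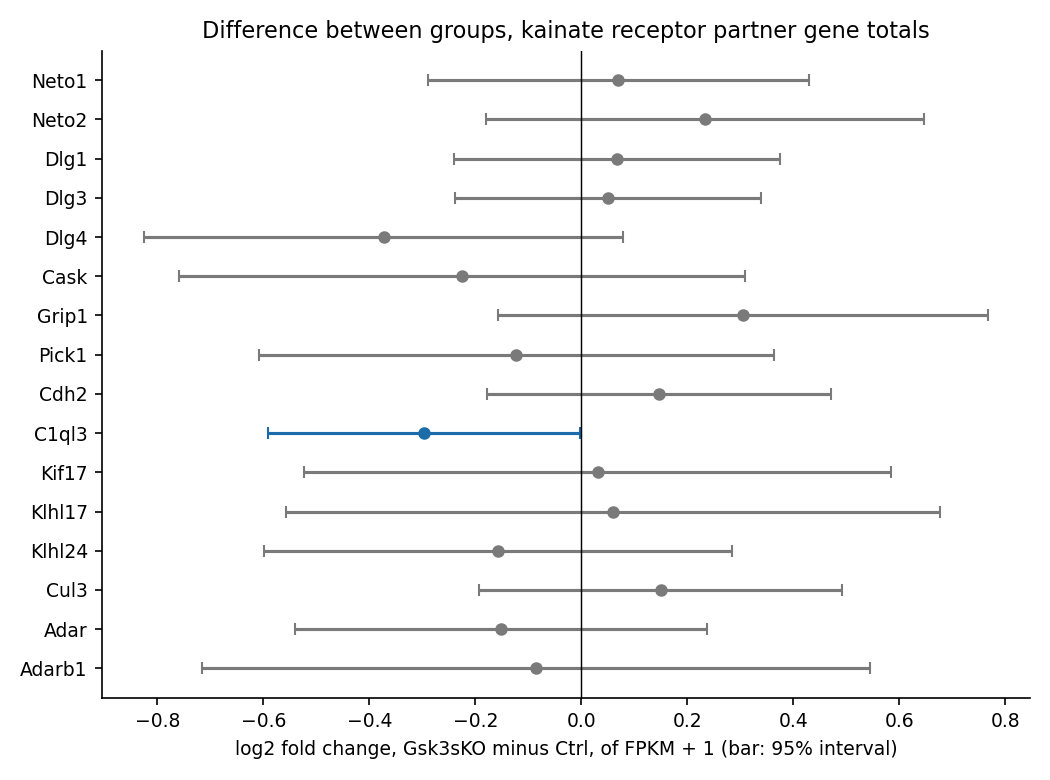
Log2 fold change, Gsk3sKO minus Ctrl, of FPKM + 1 for the 16 tested partner gene totals, with 95% limma intervals (3 libraries per group). C1ql3 (coloured) is the only gene whose interval does not include 0.

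Across the 6 libraries, the gene total whose log2(FPKM + 1) followed a subunit most closely, among 8468 gene totals with a mean of at least 5 FPKM, was Arnt2 for Grik1 (r = 0.987), Sema7a for Grik2 (r = 0.9997), Cdk19 for Grik3 (r = 0.987), Ywhag for Grik4 (r = 0.984) and Map2k1 for Grik5 (r = 0.998). These are the highest of many correlations over 6 points that share library and depth, and they are given as a description only.

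The libraries and their labels were checked on the target and on cell markers. Gsk3b, whose exon the sgRNA cuts, had gene totals of 35.6, 53.8 and 56.5 FPKM in Ctrl and 36.9, 37.0 and 33.6 FPKM in Gsk3sKO (limma adjusted p = 0.773). Its transcript ENSMUST00000023507 had 33.5, 34.7 and 36.2 FPKM in Ctrl and 24.8, 21.6 and 21.2 FPKM in Gsk3sKO. That transcript had a log2 fold change of -0.61 ± 0.14 (SE), an unadjusted limma p of 0.00448 and an adjusted p of 0.619. FPKM counts RNA from mutated and unmutated copies of Gsk3b together. The other tested transcript, ENSMUST00000114750, had 1.85, 18.7 and 20.03 FPKM in Ctrl and 11.9, 15.4 and 12.5 FPKM in Gsk3sKO, with overlapping groups and a log2 fold change of 0.42 ± 0.78 (SE, limma adjusted p = 0.949). Drd2, the marker of the tagged cells, was 1.58 FPKM in Ctrl replicate 1 and 5.96 to 14.1 FPKM in the other 5 libraries, and Adora2a was at 0 in Ctrl replicate 1. The 6 genes listed for D2 neurons summed to 147, 170 and 386 FPKM in Ctrl and 239, 249 and 365 FPKM in Gsk3sKO, lowest in Ctrl replicates 1 and 2 and highest in Ctrl replicate 3. Most of this sum was Penk (96.5 to 295 FPKM). The list also held Rpl22, the gene of the tagged ribosomal protein, which was highest in Gsk3sKO replicate 2 at 89.6 FPKM. The sum is therefore not a measure of D2 neurons alone. All genes of each marker list were above 0 in some library. Summed markers in Ctrl and Gsk3sKO spanned 950 to 1077 and 907 to 1107 FPKM for 11 excitatory neuron genes, 1198 to 1588 and 1166 to 1199 FPKM for 11 inhibitory neuron genes, 82.0 to 104 and 82.4 to 102 FPKM for 6 astrocyte genes and 118 to 183 and 128 to 165 FPKM for 6 oligodendrocyte genes. The sums for precursors of oligodendrocytes, microglia and endothelial cells (6 genes each) were at most 68.0 FPKM. Abundant genes such as Camk2a and Sst set much of these sums. Within the lists, Slc17a7, Tbr1, Cux2, Cnp, Mag, Mog, C1qa and C1qb were lower in every Gsk3sKO library than in every Ctrl library. Adarb2 and the scarce C1ql1 (mean 0.505 FPKM) were higher. Of all gene totals tested, 8.3% did not overlap as lower and 3.71% as higher. The part of these cell types in the values above was not tested. The spacing of low values put the depth at about 23.5 to 45.1 M reads per library, which leaves roughly 3195 to 5148 reads behind a Grik3 value and 313 to 654 behind a value of Grik4 ENSMUST00000114865. By the same estimate, the Grik5 ENSMUST00000205328 value of Ctrl replicate 3 stood for roughly 1546 reads, and those of Grik2 ENSMUST00000105484 for 0 to 657.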

How the data were processed

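RiboTag-IP RNA was sequenced in 3 Ctrl and 3 Gsk3sKO libraries, grouped by the labels, all of them used. FPKM values, as the authors deposited them, were given by transcript and library, and the submitters' processing notes tie them to HISAT2 2.1.0, SAMtools 1.9, StringTie 1.3.4d and GRCm38, with settings not given in the sources used here. The authors also deposited fold changes, p-values and q-values of their own comparison, which were not used. FPKM was summed by gene ID to gene totals. The comparison used the limma package (3.58.1, R 4.3.3), with lmFit and a trended eBayes, two-sided, on log2(FPKM + 1) for gene totals or transcripts averaging 1 FPKM or more, with Benjamini-Hochberg adjustment over all of them. The log2 fold changes are on that scale, which understates changes of low genes. Shares used exact permutation tests, for transcripts with at least 10% of their gene total on average, and the share that did not overlap was counted over all such transcripts in genes with more than 1 row, a mean gene total of at least 1 FPKM and no library at 0. The planned sign-flip test of the level order is not given, because the order was set on the same libraries. Named genes were Grik1 to Grik5, their rows with a mean FPKM of at least 1, the listed partners (3 of which are not reported here, so that the counts and the median over partners leave them out), Gsk3b and the closest profile of each subunit. Other rows, and the partner Dlg4 without a library, were named after their values were seen, and the members and lists were chosen with earlier results of these data known.

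Depth was taken from how low values were spaced in genes with 1 row longer than 800 bases (tolerance 0.01 reads), where 12.4 to 20.5% of low values came out whole, and the depth is therefore approximate. Coordinates and sequences came from GENCODE M21 (GRCm38), which held 15 of the 21 rows. No protein sequences were used here. The alternatives were another pseudocount (0.1), no filter or a minimum of 5 FPKM, rescaling to the median ratio, no moderation, a replicate block, and leaving out each library. Other steps ran in Python 3.11.15, with scipy 1.17.1, pandas 2.3.3, numpy 2.4.6 and matplotlib 3.10.9.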

Additional observations from a re-analysis of the deposited data

How the results depend on the processing

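With 3 libraries per group and differences near 0, the sign of several values depended on the processing, and none of the 5 gene totals was called under any alternative in which it was tested (Grik4 was below the minimum of 5 FPKM). Rescaling to the median ratio turned Grik2 to 0.052, Grik4 to 0.039 and Grik4 ENSMUST00000114865 to 0.0047 on the log2 scale. Leaving out each library in turn gave log2 fold changes of -0.14 to 0.20 for Grik1, -0.14 to 0.084 for Grik2, -0.051 to 0.092 for Grik3, -0.13 to 0.10 for Grik4, -0.10 to 0.11 for Grik4 ENSMUST00000114865, -0.26 to 0.64 for Grik5 ENSMUST00000003468 and -2.12 to 0.020 for Grik5 ENSMUST00000205328.

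Same-numbered libraries did not deviate together (r of -0.03, -0.01 and -0.08), so the numbers do not pair them. With the replicate number as a block, 1 kainate transcript was called (Grik2 ENSMUST00000105484, with an unadjusted limma p of 0.0288 and an adjusted p of 0.899) and 0 partners (C1ql3 had an unadjusted limma p of 0.0899). The block changed no other call of a member. Leaving out a library gave 0 to 1 called transcripts and 0 to 2 called partners, and the median ratio gave 0 partners. With the highest transcript of each gene, the steps of the level order were 0.40, 1.11, 0.086 and 0.88. Over all transcripts, 1200 were called, against 1917 without a filter and 590 at a minimum of 5 FPKM.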
